A study of Homo sapiens with 14 samples.

Results

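The secreted antimicrobial genes described here were RNASE7, RNASE4, DEFB1, HAMP, LEAP2, LCN2, LYZ and CAMP, taken by symbol from the platform's table of probe sets and genes. Of these 8 genes, 7 were measured among 19775 genes in all, by 10 probe sets that name 1 gene. RNASE4 has no such probe set in the annotation and was not analysed here. Where a gene had several probe sets, the one whose mean over all arrays was highest was taken as the main one, and the others are shown beside it. The 7 genes were chosen with their Dox+ and Dox− levels already known, so their differences between Dox+ and Dox− are a description and carry no p-value. Where such a difference is said to have passed or not, this only places it in the fit over all genes (limma, adjusted p under 0.05) and supports nothing about these genes.

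The arrays come from Hep3BTAp73β, a hepatocellular carcinoma line derived from Hep3B. The cells were transfected with a tetracycline repressor and with a TAp73β cDNA that doxycycline switches on, and resistant colonies were picked and expanded. How many colonies the arrays represent is not given in the sources used here. Untreated (Dox−) and doxycycline-treated (Dox+, 1 μg/mL) cells were harvested at 12 h and 24 h with 2 arrays per group and at 48 h with 3 arrays per group, 14 arrays in all. The Dox− cells carry the same construct, and cells given doxycycline without the construct were not analysed here, so the drug and TAp73β cannot be told apart. The labels call the arrays biological replicates without saying what separates them.

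Antimicrobial peptides and proteins are secreted by epithelia, by the liver and by phagocytes. Many are small cationic molecules that damage microbial membranes, and others withhold iron or cut the bacterial wall. RNase 7 is a ribonuclease of the RNase A superfamily known from skin and urinary tract epithelium. Beta-defensin 1, from DEFB1, is made steadily by many epithelia, and cathelicidin, from CAMP, is released as a propeptide and cleaved to LL-37. Hepatocytes make hepcidin, from HAMP, which controls iron export by binding ferroportin, and LEAP2, which was found as a liver antimicrobial peptide and also binds the ghrelin receptor. Lipocalin 2 binds bacterial siderophores, and lysozyme hydrolyses peptidoglycan. p73 is a transcription factor that binds DNA through pairs of half-sites of a known consensus.

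RNASE7 is shown by the stretch before its start because it had the widest range of levels among the main probe sets of the 7 genes. RefSeq places this window at chr14:21042112-21042361 of GRCh38.p14, on the plus strand, and it holds the 250 bases before the annotated transcript start. The capitals mark the 1 match to the 10-base p73 half-site consensus, searched on both strands, which begins at position -176 from the start.
RNASE7: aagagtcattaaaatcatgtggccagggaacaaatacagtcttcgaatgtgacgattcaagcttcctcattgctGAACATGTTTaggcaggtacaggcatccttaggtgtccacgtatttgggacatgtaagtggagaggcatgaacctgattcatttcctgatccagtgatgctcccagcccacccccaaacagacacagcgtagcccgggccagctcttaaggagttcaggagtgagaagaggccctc

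A half-site was found in 1944 of 34788 distinct windows of this length, or 5.59%, and 2 half-sites with at most 13 bases between them in 0.0259%. The RNASE7 window does not hold such a pair. It holds the letters CATG, the core of the half-site, 4 times, counting the copy within the half-site, and 1.5% of windows hold 4 or more. Windows were listed for 6 of the 8 genes. Those of HAMP, LCN2 and CAMP hold neither a half-site nor CATG, and that of LEAP2 holds CATG 1 time and no half-site. RNASE4 has 2 listed windows without a half-site, of which 1 holds CATG 4 times, as often as the RNASE7 window, and the other not at all. A match is a description of letters, and binding was not measured on these arrays.

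RNASE7 had higher levels in Dox+ cells than in Dox− cells at every time point, and the largest difference was at 48 h. At 12 h its log2 level was 3.58 and 4.07 on the Dox− arrays and 5.76 and 5.57 on the Dox+ arrays. At 24 h the Dox− arrays gave 3.84 and 4.58 and the Dox+ arrays 6.06 and 6.45. At 48 h the Dox− arrays gave 3.95, 3.78 and 3.91 and the Dox+ arrays 8.88, 8.96 and 9.23. The lowest Dox+ array stood above the highest Dox− array throughout, and by 48 h the gap between them was several times the range within either group. The differences were 1.84 (SE 0.19), 2.04 (SE 0.23) and 5.15 (SE 0.094) on the log2 scale, which are 3.58-fold, 4.12-fold and 35.4-fold. All 3 were past the threshold over all genes. Without the first Dox− array of 12 h the 12 h difference was 1.60 and was not.

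The difference of RNASE7 grew mainly between the later harvests. From 24 h to 48 h it gained 3.10, the largest upward step of the 19775 genes, of which 3 grew by 2 or more. By size of the difference RNASE7 ranked 22 at 12 h, 35 at 24 h and 2 at 48 h. TP73, the induced gene, differed by 1.89, 2.27 and 1.96 at the same times on its main probe set, and this difference moved by -0.31 between 24 h and 48 h. Its other probe sets differed by 0.72 and 1.17 at 48 h, and which of them read the transfected cDNA was not tested. Within the Dox+ arrays RNASE7 gained 0.59 from 12 h to 24 h and 2.77 from 24 h to 48 h.

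**Figure D1:**
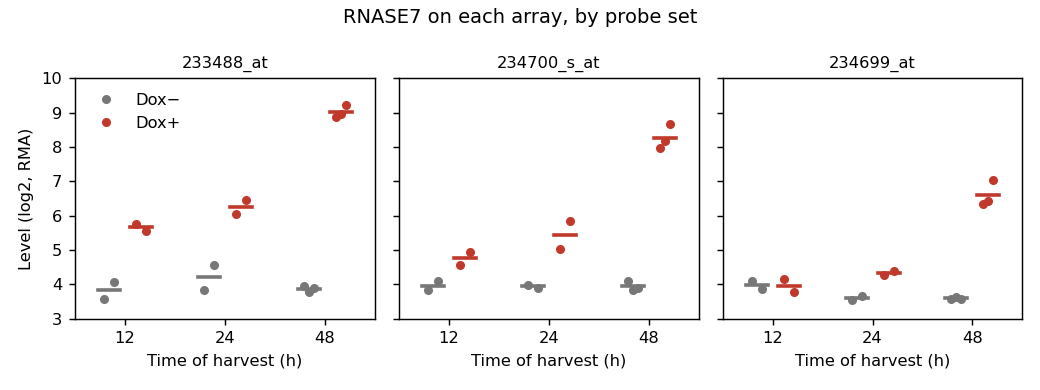
Log2 RMA level of RNASE7 on each array by time of harvest (h), in 1 panel for each of its 3 probe sets. Points are arrays, grey for Dox− and red for Dox+, and the short lines are group means. The Dox+ arrays at 48 h lie far above the Dox− arrays in all 3 panels, and at 12 h the groups overlap in the panel of 234699_at.

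The other probe sets of RNASE7 showed the same order of time points with smaller differences. On 234700_s_at the 48 h arrays gave 4.11, 3.84 and 3.89 in Dox− and 7.97, 8.16 and 8.67 in Dox+ cells. In order of time its differences were 0.80, 1.50 and 4.32, the last of them 20.0-fold. On 234699_at the 48 h arrays gave 3.58, 3.64 and 3.59 against 6.35, 6.42 and 7.03. Its 24 h and 48 h differences were 0.72 and 2.99, and at 12 h its groups overlapped with a difference of -0.01. Tested over all probe sets, neither passed at 12 h and both passed at 24 h and 48 h. Levels of different probe sets cannot be set against each other, so which is closer to the amount of RNA is not known. RNASE8, a close relative of RNASE7, has no probe set of its own in the annotation, and its part in these signals was not tested.

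LYZ had the largest fall among the 7 genes. Its main probe set, 213975_s_at, gave 11.82 and 12.14 in Dox− and 11.42 and 11.66 in Dox+ cells at 12 h, and 11.70 and 11.64 against 11.74 and 11.65 at 24 h. At 48 h the Dox− arrays gave 11.90, 11.93 and 11.76 and the Dox+ arrays 10.90, 11.09 and 10.85. The groups overlapped at 24 h, while at 12 h and 48 h every Dox+ array was below every Dox− array. The differences were -0.43 (SE 0.17), 0.02 (SE 0.13) and -0.92 (SE 0.081), of which the one at 48 h, a 1.89-fold lower level, passed the test.

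The second LYZ probe set, 1555745_a_at, differed from the main one at 24 h. It gave 8.36 and 7.85 in Dox− and 6.57 and 6.62 in Dox+ cells at 24 h, a difference of -1.51 that passed over all probe sets. At 48 h it gave 8.84, 8.94 and 8.60 against 7.64, 7.66 and 7.03, a difference of -1.35 that passed as well. At 12 h it gave 5.08 and 7.61 in Dox− and 3.70 and 6.90 in Dox+ cells, and its difference of -1.05 had an SE of 1.13. Both first replicates of 12 h were low, in Dox− and in Dox+ cells alike, and each Dox+ array was below the Dox− array of the same number.

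LEAP2 was lower in Dox+ cells at each time point. In order of time the Dox− arrays gave 6.63 and 6.40, then 7.0 and 6.58, then 6.17, 5.93 and 6.04. The Dox+ arrays gave 6.35 and 6.16, then 6.30 and 5.99, then 5.63, 5.58 and 5.70. No Dox+ array reached a Dox− array of its own time point. The differences were -0.26 (SE 0.16), -0.64 (SE 0.18) and -0.41 (SE 0.074). The one at 48 h passed the test, and those at 12 h and 24 h did not.

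LCN2 was slightly higher in Dox+ cells at 48 h. Its levels were 5.15, 5.06 and 5.26 in Dox− and 5.47, 5.52 and 5.43 in Dox+ cells, with no overlap and a difference of 0.32 (SE 0.068). This difference passed the test, but not when all 14 arrays were fitted together. At 24 h the levels of 4.99 and 5.36 in Dox− and 5.57 and 5.38 in Dox+ cells differed by 0.30 and did not pass. At 12 h the Dox− arrays, at 5.32 and 5.75, enclosed the Dox+ arrays at 5.35 and 5.45.

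DEFB1, HAMP and CAMP did not pass the test at any time point. DEFB1 at 48 h gave 4.97, 5.36 and 5.20 in Dox− and 4.94, 4.91 and 4.94 in Dox+ cells, so that all Dox+ arrays were below with a difference of -0.24 (SE 0.093). Without the first Dox− array of 48 h, the one nearest to the Dox+ arrays, that difference was -0.35 and passed. HAMP gave 4.93, 4.59 and 4.71 against 4.82, 4.50 and 4.73 at 48 h, a difference of -0.06 (SE 0.11). At 24 h its Dox− arrays, at 4.90 and 5.14, were below its Dox+ arrays, at 5.21 and 5.38. CAMP at 48 h gave 5.37, 5.41 and 5.22 against 5.45, 5.50 and 5.40, a difference of 0.12 (SE 0.068). The 12 h differences of DEFB1, HAMP and CAMP were -0.06, 0.17 and 0.05, each with overlapping groups.

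**Figure D2:**
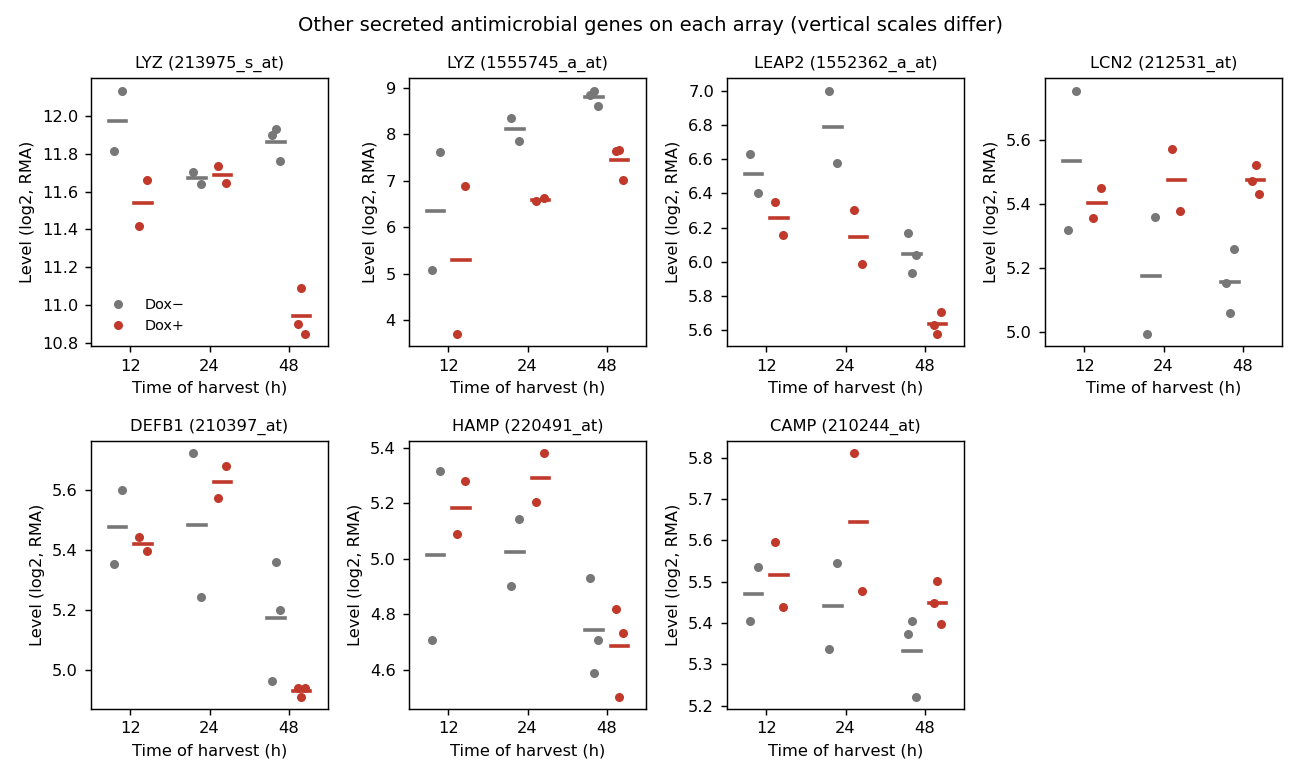
Log2 RMA level on each array by time of harvest (h) for the other 6 measured genes, with both probe sets of LYZ and vertical scales that differ between panels. Points are arrays, grey for Dox− and red for Dox+, and the short lines are group means. LYZ and LEAP2 are lower and LCN2 slightly higher in Dox+ cells at 48 h, and both first replicates of LYZ 1555745_a_at are low at 12 h.

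Counted over the 7 genes, 1 was called higher and 0 lower at 12 h, where 0.647% of all genes were called higher and 0.0202% lower. At 24 h again 1 was called higher and 0 lower, against 3.01% and 2.81% of all genes. At 48 h 2 were called higher, RNASE7 and LCN2, and 2 lower, LYZ and LEAP2, against 11.3% and 12.9%. Since the genes were chosen by values that include these contrasts, nothing is read from the counts. The median difference of the 7 genes was -0.06, 0.20 and -0.06 at the 3 times, beside -0.04, 0.02 and -0.02 over all genes. Apart from LYZ, the 7 genes had a mean over the arrays below that of the median gene, 6.49, and no detection calls were used, so signal over background is not known for them. The main probe set of RNASE7 gave 3.58 to 4.58 on the Dox− arrays and 8.88 to 9.23 on the 48 h Dox+ arrays. Its fold differences are thus ratios to Dox− levels whose signal over background is not known.

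**Figure D3:**
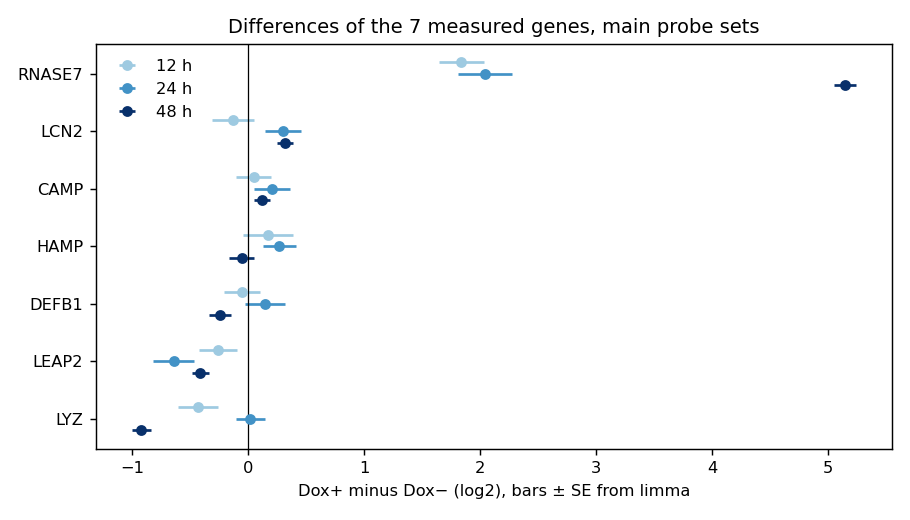
Difference between Dox+ and Dox− cells on the log2 scale (horizontal axis) for the main probe set of each of the 7 measured genes, with 1 point for each time of harvest and bars of ± 1 SE from limma. RNASE7 lies between 1.84 and 5.15, and the other 6 genes lie between -0.92 and 0.32.

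The Dox− arrays alone show how these genes vary with time in culture. Their levels were also known when the genes were chosen, so this comparison too is a description. Time in culture and harvest cannot be told apart. Of the 7 genes, 0 were called higher and 1 lower at 48 h than at 12 h, where 9.27% and 10.6% of all genes were, and 0 higher and 1 lower at 48 h than at 24 h, against 0.693% and 0.455%. The lower gene was LEAP2 both times, by -0.47 (SE 0.14) from 12 h and by -0.74 (SE 0.14) from 24 h. Every 48 h array was below every earlier one, but the call from 12 h was lost in 7 and that from 24 h in 9 of 14 alternatives. RNASE7 in Dox− cells moved by 0.05 (SE 0.21) from 12 h and by -0.33 (SE 0.21) from 24 h. LCN2 at 48 h was below both 12 h arrays, by -0.38 (SE 0.15), without a call.

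Among the Dox+ arrays, DEFB1, HAMP, LEAP2 and LYZ had lower means at 48 h than at 24 h, by -0.69, -0.61, -0.51 and -0.75 on the log2 scale. In Dox− cells the same step was -0.31 for DEFB1, -0.28 for HAMP, -0.74 for LEAP2 and 0.19 for LYZ. LCN2 and CAMP moved by 0.00 and -0.20 between these Dox+ groups.

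In the RNase A family, to which RNASE7 belongs, genes differed in both directions at 48 h. Of 12 listed genes, counting the ribonuclease inhibitor RNH1, 6 were measured, of which 1 rose, 2 fell and 3 did not pass. That is 50% called, beside 24.2% of all genes in either direction. RNASE1, the pancreatic-type ribonuclease also made by endothelium, fell by 0.83 on the log2 scale (adjusted p = 2.48e-04), from 7.21 ± 0.10 to 6.37 ± 0.18 (SD, n = 3). This holds for its main probe set. The other, with a mean of 3.54 over the arrays, differed by -0.06 and did not pass. ANG, which encodes angiogenin and shares its promoter region with RNASE4, fell by 0.38 (adjusted p = 0.002), from 8.21 ± 0.05 to 7.83 ± 0.07 (SD, n = 3). RNASE6, an antimicrobial ribonuclease of monocytes, rose by 0.26 (adjusted p = 0.0447), a call lost in 9 of 13 alternatives. RNASE2, which encodes the eosinophil-derived neurotoxin, differed by -0.13, RNASE11 by 0.02 and RNH1 by -0.04. None of the 6 passed at 12 h or 24 h.

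RNASE7 lies in a cluster of ribonuclease genes, and the genes next to it in RefSeq order that were measured differed among themselves at 48 h. On the side before it, RNASE2, METTL17, SLC39A2 and NDRG2 differed by -0.13, -0.01, -0.04 and 0.08, and none passed. On the side after it, ARHGEF40 rose by 1.21 (SE 0.067, adjusted p = 3.32e-06) and ZNF219 by 0.27 (adjusted p = 0.0173). HNRNPC, which encodes an RNA-binding protein, fell by 0.20 on the log2 scale (adjusted p = 0.0338), and TMEM253 differed by -0.15 without passing.

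The 5 genes whose 6 group means were most like those of RNASE7 were ACKR3, CCDC198, PARM1, CYP4F3 and TPRG1, with Pearson r of 0.995, 0.992, 0.989, 0.989 and 0.981. They come from 117 genes whose group means span at least 2 on the log2 scale, and each r is over 6 means of arrays that all the genes share. ACKR3 encodes an atypical chemokine receptor that takes up CXCL12, and CYP4F3 a fatty acid and leukotriene hydroxylase. Their 48 h differences were 2.41, 2.25, 2.37, 3.95 and 2.32, each under the 5.15 of RNASE7. Since they were picked for these means, their time course is no separate finding.

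**Figure D4:**
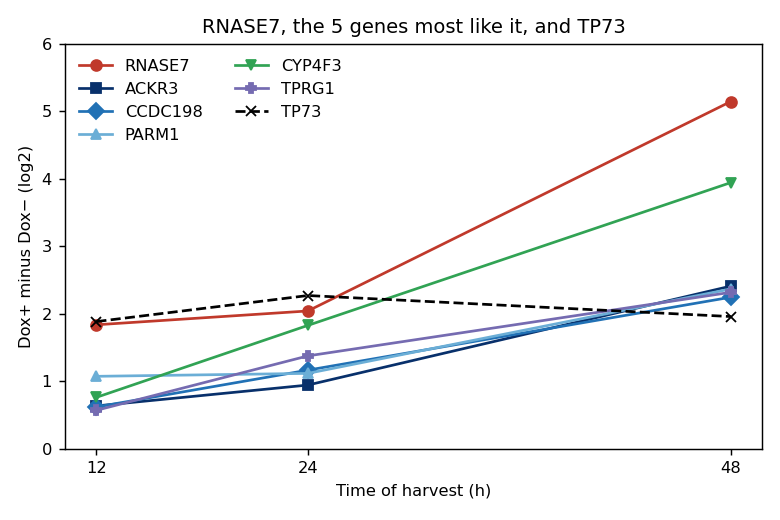
Difference between Dox+ and Dox− group means (log2, vertical axis) against time of harvest (h) for RNASE7, the 5 genes most like it over the group means, and TP73 (dashed), each by its main probe set. RNASE7 reaches 5.15 at 48 h, and the 5 genes, picked for the likeness of these means, lie between 2.25 and 3.95, while TP73 lies at 1.89, 2.27 and 1.96.

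Other epithelial defence genes mostly did not pass at 48 h. Of 46 measured, 3 rose and 1 fell, which is 8.7% against 24.2% of all genes, and the median was -0.03 beside -0.02 over all genes. The called genes had Dox− means at 48 h from 7.27 (ADM) to 11.50 (CCL20). Many of the others lay below the array medians, such as STATH at 3.31 and DEFB127 at 3.38. Signal over background is not known for those, so the low share cannot show that such genes did not respond. CCL20, a chemokine with antimicrobial activity, rose by 1.02 (SE 0.089, adjusted p = 5.18e-05). SLPI, the secretory leukocyte protease inhibitor, rose by 0.97 (SE 0.073, adjusted p = 2.02e-05), from 7.89 ± 0.09 to 8.85 ± 0.09 (SD, n = 3). CHI3L1, a chitinase-like protein, rose by 0.65 (adjusted p = 2.60e-04). ADM, which encodes adrenomedullin, fell by 0.26 (adjusted p = 0.046), a call lost in 8 of 14 alternatives, and at 24 h it differed by -0.995 (adjusted p = 0.00359). The skin antimicrobial genes S100A7, S100A8, S100A9 and PI3 differed by 0.08, -0.05, -0.13 and -0.08 and did not pass.

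The list of neutrophil granule genes, the class in which CAMP, LCN2 and LYZ are usually placed, held 15 measured genes besides them. These count DEFA5, DEFA6 and GNLY, which are better known from other cells, so the list is wider than the class. CRISP3, which encodes a cysteine-rich secretory protein of granules and exocrine glands, rose by 1.97 (SE 0.077, adjusted p = 4.28e-07) at 48 h and by 1.61 at 24 h (adjusted p = 0.00107). The other 14 did not pass at 48 h, so that 6.67% of the list was called beside 24.2% of all genes, and the list had a median of -0.04. All 15 had Dox− means at 48 h between 3.45 (OLFM4) and 6.16 (CTSG), below the mean of the median gene, 6.49. Signal over background is not known for them, so the low share cannot show that this class did not respond.

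Among 24 measured plasma defence proteins of the liver, 10 fell and 2 rose at 48 h, which is 50% called beside 24.2% of all genes, with a median of -0.13. MBL2, the mannose-binding lectin of the complement system, fell by 0.61 (adjusted p = 0.00676). PROC, which encodes protein C, fell by 0.55 (adjusted p = 8.67e-04), and the fibrinogen chains FGA and FGB fell by 0.55 (adjusted p = 5.37e-04) and 0.50 (adjusted p = 0.00226). The genes that rose, chosen for naming after their values were seen, were C4BPA by 0.34 and C3 by 0.27, both of the complement system.

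Genes around hepcidin were tested because HAMP is controlled by BMP, SMAD and IL-6 signalling and acts on ferroportin. Of 30 measured genes, 9 rose and 3 fell at 48 h, which is 40% called beside 24.2% of all genes, and HAMP itself differed by -0.06. SLC40A1, which encodes ferroportin, rose by 1.03 (SE 0.056, adjusted p = 2.79e-06), from 11.33 ± 0.02 to 12.36 ± 0.04 (SD, n = 3). ATOH8, a transcription factor known to activate HAMP, rose by 0.75 (adjusted p = 6.04e-05), EPAS1, which encodes HIF-2α, by 0.74 (adjusted p = 2.68e-05), and the BMP target ID1 by 0.54 (adjusted p = 2.01e-04). BMP6, the main ligand upstream of hepcidin, rose by 0.29 (adjusted p = 0.0189), a call lost in 6 of 13 alternatives. For ATOH8 and BMP6 alike, 1 of 3 probe sets passed when tested alone. The genes that fell, named after their values were seen, were BMP2, a further BMP ligand, by 0.40 (adjusted p = 0.00476), the BMP co-receptor HJV by 0.29 and the signal transducer SMAD5 by 0.29. BMP2 also differed by -0.94 at 24 h (adjusted p = 0.00668). The feedback inhibitors SMAD6 and SMAD7 differed by 0.04 and 0.16, TFR2 by -0.20, STAT3 by 0.21 and CEBPA by 0.02, and none of these passed.

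The NF-κB, IL-1 and IL-17 inputs that act on LCN2 and other defence genes had 32 measured members. Of these 7 rose and 4 fell at 48 h, or 34.4% called beside 24.2% of all genes. TLR3, a receptor for double-stranded RNA, rose by 1.54 (SE 0.091, adjusted p = 4.72e-06), and RELB, an NF-κB subunit, by 0.49 (adjusted p = 0.00115). EGFR rose by 0.55 (adjusted p = 0.00326) on its main probe set, while 2 of its 9 probe sets passed when each was tested alone. NFKBIZ, which encodes IκBζ and is needed for induction of LCN2, fell by 0.68 (SE 0.070, adjusted p = 1.44e-04). CEBPB and CEBPD differed by 0.11 and -0.02 and did not pass.

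Vitamin D, which controls CAMP through its receptor, was covered by 8 measured genes. Of these 2 rose and 1 fell at 48 h, or 37.5% called beside 24.2% of all genes. CYP24A1, the enzyme that inactivates vitamin D, rose by 0.76 (SE 0.13, adjusted p = 0.00279), from 4.31 to 5.07, both below the array medians. CYP2R1 rose by 0.33 (adjusted p = 0.0289), and CYP27A1 fell by 0.23 (adjusted p = 0.0456), and the calls were lost or turned in 5 of 14 and 8 of 14 alternatives. For CYP2R1, 1 of 3 probe sets passed when tested alone. VDR, the receptor, differed by -0.09 (adjusted p = 0.488).

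Of 13 measured genes that process these proteins or receive their signal, 1 rose and 2 fell at 48 h, a called share of 23.1% that lies near the 24.2% of all genes. CCR6, a receptor of CCL20 and beta-defensins, fell by 0.64 (adjusted p = 7.08e-04), from 4.23 to 3.60. Both levels lie below the array medians, so signal over background is not known for CCR6. FURIN, the protease that cleaves prohepcidin, fell by 0.42 (adjusted p = 0.00228), and the lysosomal protease CTSL rose by 0.51 (adjusted p = 0.00301). FURIN did not pass when all 14 arrays were fitted together. GHSR, the ghrelin receptor to which LEAP2 binds, differed by -0.05 and did not pass.

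**Figure D5:**
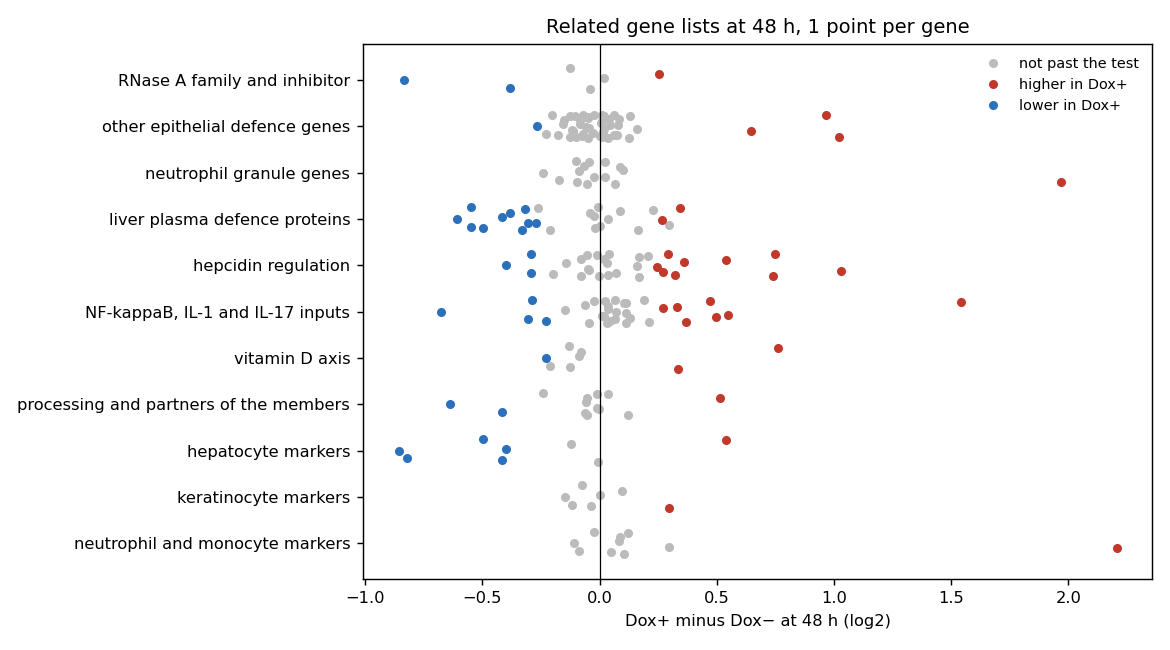
Difference between Dox+ and Dox− cells at 48 h on the log2 scale (horizontal axis) for the genes of 11 lists (vertical axis), 1 point per gene, without the 7 antimicrobial genes themselves. Red points were called higher and blue points lower by limma at an adjusted p under 0.05, and grey points did not pass. CRISP3 at 1.97 and ITGAM at 2.21 lie far from the rest of their lists.

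The labelled cell type was checked on 8 measured hepatocyte markers, whose mean level was 11.4 to 11.8 on all arrays. Of these 5 fell at 48 h and 1 rose, which is 75% called beside 24.2% of all genes. APOA1 fell by 0.86, TTR by 0.82 and FGB by 0.50, and SERPINA1 rose by 0.54. TF and AFP, named after their values were seen, fell by 0.42 and 0.40. ALB, at 14.4 in both groups of 48 h, differed by -0.01. Whether the arrays could show a change at that level was not tested. The APOA1 call rests on 2 probe sets open to cross-hybridisation, with means of 11.3 and 11.2 over the arrays, and the remaining probe set, with a mean of 5.08, differed by -0.03 and did not pass. Keratinocytes are the cells in which RNASE7 is best known. Of 7 keratinocyte markers, KRT5 rose by 0.30 (adjusted p = 0.0308, lost in 6 of 13 alternatives) and the other 6 did not pass, which is 14.3% called. The mean level of the 7 was 5.23 to 5.32 on the Dox+ and 5.27 to 5.28 on the Dox− arrays of 48 h. Apart from KRT10 at 11.34, their Dox− means at 48 h lay below the array medians, so signal over background is not known for them. Of 10 neutrophil and monocyte markers, ITGAM rose by 2.21 on 1 of its 2 probe sets (0.15 on the other) and the other 9 genes did not pass, which is 10% called. Their mean level was 5.14 to 5.23 on the Dox+ and 4.85 to 4.93 on the Dox− arrays of 48 h. ITGAM enters this mean by its main probe set and had by far the largest difference. The median difference of the 10 was 0.08. PTPRC, MPO, ELANE and CD14, named after their values were seen, differed by 0.12, 0.09, -0.09 and 0.30. For CD14 all Dox+ arrays were above the Dox− arrays. Apart from CD14 and CSF3R, the Dox− means at 48 h lay below the array medians. The part of these marker genes in the differences of the antimicrobial genes was not tested.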

How the data were processed

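RNA of 14 samples was hybridised to 1-colour Affymetrix arrays of the U133 Plus 2.0 design. The deposited log2 values were made by the authors with RMA, and their processing notes give R 3.5.1. Per the methods, outlier arrays had been excluded. No filter or further normalization was applied. Of 54675 probe sets, 62 controls were left out, 41091 named 1 gene in the platform annotation, 1801 several and 11721 none. Array medians were 5.15 to 5.28, and the spread between replicates (root mean variance) was 0.209 at most at 12 h and 0.111 at most at 48 h. The number of arrays limits the precision, and p-values measure only the spread between these samples.

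Dox+ and Dox− arrays of 1 time point, and the 7 Dox− arrays across time, were compared two-sided by lmFit and eBayes of limma 3.58.1, run in R 4.3.3, with p-values adjusted by Benjamini-Hochberg over 19775 genes, threshold 0.05. Secondary probe sets were judged over all probe sets that name 1 gene. The test code was run on simulated data in which all genes of a group shared 1 spread. Real genes differ in spread, so this run says nothing about how sure the calls are. Tables and figures used the R package data.table (1.17.8), pandas 2.3.3, numpy 2.4.6 and matplotlib 3.10.9. Promoters came from RefSeq.

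The members, the gene lists and the tests were chosen with earlier results of these data known. Named were all members, the measured RNase A family, up to 4 genes per list with the largest called and non-overlapping difference at 48 h, the genes each list is built on, the 5 genes most like RNASE7, and its nearest measured neighbours. Lists were described by counts without a set test. Alternatives were all 14 arrays in 1 fit, quantile normalization, dim genes left out, other probe set choices, trend and robust moderation, the replicate block and each array left out.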

Additional observations from a re-analysis of the deposited data

Results flagged for a closer look

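RNASE2 and RNASE6 differed in opposite directions at different time points, with no overlap between the Dox+ and Dox− arrays at the times given. RNASE2 differed by -0.46 at 12 h, where both Dox+ arrays were below, and by 0.24 at 24 h, where both were above. RNASE6 differed by -0.41 at 12 h and -0.12 at 24 h and by 0.26 at 48 h. None of the 12 h and 24 h differences passed. At those times the comparison is of 2 arrays with 2, and the share of all genes with such a change was not counted. Other genes of low level showed it too, such as STATH, at -0.24 at 12 h and 0.20 at 24 h, and DEFB123, at -0.43 and 0.23. The difference between the time points was not tested for either RNASE2 or RNASE6. RNASE2 and RNASE6 had low levels, with means of 3.65 and 3.36 in Dox− cells at 48 h.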

How the results depend on the processing

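For the genes chosen with these values known, the 48 h difference ranged over the alternatives from 5.05 to 5.22 for RNASE7, from -1.35 to -0.87 for LYZ and from -0.47 to -0.35 for LEAP2, which is no independent support. Taking for each gene the most variable probe set (largest interquartile range), LYZ was at -1.51 at 24 h and rose by 2.45 in Dox− cells from 12 h to 48 h, and EGFR and CYP2R1 were at -0.13 and -0.10 at 48 h. The cause was not tested. LEAP2 at 24 h passed in 4 of 12 alternatives, and HAMP and LCN2 in Dox− cells from 12 h to 48 h passed without the first 12 h array (-0.58 and -0.60). With dim genes left out, 6 of the 7 genes had no value.

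Called genes at 12 h, 132 in all, became 1683 with all 14 arrays, 50 over every probe set, 87 with the largest interquartile range, and 4 to 227 leaving out 1 array (4 without the first and 20 without the second Dox− array, 227 without the first Dox+ array). At 24 h 1152 became 2308 with all 14 arrays, 2220 with trend and robust moderation, and 647 to 863 leaving out 1 array (647 and 723 without the first and second Dox− array, 682 without the first Dox+ array). At 48 h 4778 became 2798 with all 14 arrays, and the 49 called list genes became 32. In Dox− cells, the 3927 genes from 12 h to 48 h became 2596 by quantile normalization and 469 to 4863 leaving out 1 array (2573 without the second 12 h array, 886, 469 and 469 without each 48 h array). The 227 genes from 24 h to 48 h became 584 with all 14 arrays, 389 with trend and robust moderation, 115 over every probe set, and 0 to 910 leaving out 1 array (0 and 910 without the second and first 24 h array, 470 without either 12 h array, 5, 42 and 4 without each 48 h array). Quantile normalization changed the share called higher from 51.7% to 64.1% at 24 h and from 46.7% to 33.6% in Dox− cells from 12 h to 48 h. With dim genes left out these shares were 41.2% and 70.9%, and with the largest interquartile range the 24 h share was 38%. An array left alone in its group was assumed to vary like the others.

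Replicate numbers were not taken to pair the samples, since the labels tie them to nothing shared and deviations of same-numbered arrays correlated at 0.255 at 12 h but -0.11 at 24 h and 0.0892 to 0.109 at 48 h. With the replicate block the 12 h count was 469, and the Dox− counts were 1188 from 12 h and 66 from 24 h. With the pairing crossed at 24 h, added after seeing the data, 1593 genes were called.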
